A study of Mus musculus with 35 samples.

Results

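The genes described are 10 transcripts of the absorptive intestinal epithelium, measured in resident and circulating T cells and in whole organs of the mouse. They were Lct, Sis, Anpep, Mep1a, Vil1, Fabp2, Lgals4, Ada, Epcam and Cdh1. They were found through the accession of each array probe, which gave 12 probes for the 10 genes, 3 of them for Lgals4. All 10 genes passed the filter on dim probes, among 10635 genes tested of 20886 with a named probe.

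All samples were from C57BL/6 females, wild type and healthy, at an age of 8 to 16 weeks, and no group had a treatment or an altered gene. Resident memory CD8+ T cells (Trm) were taken with magnetic beads from dissociated liver (n = 5), lung (n = 6) and small intestine (n = 6), first on CD8b and then on CD103. Effector memory CD8+ T cells (Tem, n = 6) were CD8b+ cells from blood depleted of CD62L+ cells. Unsorted whole intestine, liver, lung and blood mononuclear cells (whole PBMC), with 3 arrays each, gave the level of each gene in the unsorted source. Per the labels, Tem were taken from the animals that gave the organs, but no label ties an array to an animal. Trm and Tem were therefore fitted as separate groups, and p-values reflect the spread between these samples, part of which may be technical.

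Enterocytes line the villi and carry a brush border of microvilli, built on actin bundles that villin holds together. Digestive enzymes sit in its membrane: lactase (Lct) splits milk sugar, sucrase-isomaltase (Sis) splits sucrose and starch fragments, and aminopeptidase N (Anpep) and meprin alpha (Mep1a) cut peptides. E-cadherin (Cdh1) joins epithelial cells to each other and is the ligand of the integrin CD103, on which the Trm were selected, and of KLRG1, an inhibitory receptor of effector T cells. EpCAM (Epcam) is another adhesion molecule of the epithelial surface. Itgae, which encodes CD103, had no probe matched to it and is not analysed here.

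Promoters of 9 of the 10 genes, all but Cdh1, were taken from RefSeq (build GRCm38.p6), and the 250 bases before each gene start were searched for motifs of factors known in intestinal epithelium. The CDX motif TTTATNG, bound by caudal-type homeobox factors, was present on either strand in 3 of the 9, against 9.81% of 32851 promoters of that length. Those 3 are shown because they carry that motif. Capitals mark the CDX motif, in Sis also the HNF1 core GTTAAT (6.43% of all promoters) and in Fabp2 also the HNF4 motif CAAAGTNCA (1.19%). The stretches in capitals do not overlap. They lie at chr3:72967864-72968113 on the minus strand for Sis, chr3:122894822-122895071 on the plus strand for Fabp2 and chr17:87635729-87635978 on the plus strand for Epcam, each printed 5′ to 3′ toward the gene.
Sis: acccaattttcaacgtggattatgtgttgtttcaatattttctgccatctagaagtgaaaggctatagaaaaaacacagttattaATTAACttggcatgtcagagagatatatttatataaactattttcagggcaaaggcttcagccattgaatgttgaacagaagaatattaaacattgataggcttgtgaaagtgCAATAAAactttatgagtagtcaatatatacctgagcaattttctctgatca
Fabp2: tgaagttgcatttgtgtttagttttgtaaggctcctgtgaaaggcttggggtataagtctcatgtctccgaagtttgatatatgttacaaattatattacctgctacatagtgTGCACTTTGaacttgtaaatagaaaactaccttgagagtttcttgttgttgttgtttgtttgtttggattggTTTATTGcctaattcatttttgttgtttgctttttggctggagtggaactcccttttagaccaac
Epcam: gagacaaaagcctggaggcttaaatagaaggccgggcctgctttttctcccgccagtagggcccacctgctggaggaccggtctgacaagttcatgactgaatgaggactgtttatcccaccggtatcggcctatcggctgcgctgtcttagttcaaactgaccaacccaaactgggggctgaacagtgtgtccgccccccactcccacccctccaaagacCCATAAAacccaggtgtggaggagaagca
The CDX match ends 46 bases before the start of Sis, 59 before that of Fabp2 and 23 before that of Epcam. The GATA motif AGATAA, in 9.99% of all promoters, was found in Lct only, and the TATA box TATAAA, in 12.4%, in Sis only. The E-box CACCTG, the motif of factors that repress Cdh1 in other settings, was found in Ada, Lgals4 and Epcam, against 17.2% of all promoters. The full HNF1 motif, in 0.0548% of all promoters, was found in none of the 9. A match describes these letters and is not evidence of a bound site.

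Levels are given as log2 of the processed signal minus the 75th percentile of the same array, so a difference of 1 is a doubling and levels of different genes cannot be compared. "Well above background" is the scanner software's own mark for a probe. Between 12.2% and 35.5% of probes had that mark on the sorted-cell arrays, and between 7.80% and 64.6% on the whole samples. Of 9 T cell genes with a probe, 8 or 9 were well above background on every sorted array, against 1 to 8 on whole PBMC, whose summed T cell level ranged from -3.20 to 0.86. In whole intestine all 10 genes described and 39 or 40 of 42 other enterocyte genes were well above background on every array. Liver Trm 3 (12.2%), whole liver 2 (64.6%) and whole PBMC 1 (7.80%) stood apart in that share, and Tem 3 in its background level. Without those 4 arrays the number of genes called among the 10 was the same in 10 of the 11 comparisons, and rose from 9 to 10 between whole intestine and whole liver. Sorted and whole samples were on different slides and scan days, so those differences and the day cannot be told apart. In all these bulk samples, fewer cells of a type and less RNA per cell cannot be told apart.

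The 4 digestive enzymes were well above background on every whole intestine array and mostly below background in intestine Trm. Lct stood at 0.78, 0.58 and 1.93 in whole intestine, and ran from -9.16 through a median of -8.25 to -5.70 in intestine Trm, where no array of 6 was well above background. The groups do not overlap, and the highest Trm value, on array 2, was itself not above background. The signal of Lct was at least 169-fold lower in intestine Trm than in whole intestine (fitted log2 difference -9.06 ± 0.62 SE, adjusted p = 6.5e-14). A bound is used where the dimmer group had no array above background: it sets the brighter group's mean against the lowest signal that counted as above background on each dimmer array.

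Sis showed the same layout, at -0.10, -0.06 and 1.76 in whole intestine and from -9.06 through -8.15 to -5.41 in intestine Trm, with no Trm array above background. It was at least 112-fold lower in intestine Trm (log2 difference -8.38 ± 0.53, adjusted p = 1.2e-14). Array 2 was again the highest Trm array for Sis. Outside the intestine Sis was below background on every array, and Lct on all but 1 of the 9 other whole-sample arrays: whole liver 2, at -5.02, was well above background for Lct, and whole liver 1 and 3 were at -8.92 and -8.47.

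Mep1a was above background in whole intestine alone, at -4.13, -4.13 and -1.49, with whole intestine 3 well above the other arrays. In intestine Trm it ran from -9.37 through -8.54 to -7.85, at least 8.32-fold lower (log2 difference -5.31 ± 0.47, adjusted p = 4.7e-11). That bound is small because the whole-intestine signal itself was closer to the background.

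Anpep was the least restricted of the 4 enzymes among the whole organs. Its level was 0.02, 0.09 and 1.84 in whole intestine, -4.72, -4.63 and -4.87 in whole liver and -5.46, -5.78 and -6.09 in whole lung, all well above background, and below background in whole PBMC. The 3 organs do not overlap, though whole lung and whole liver were not called apart in the fit of all groups (log2 difference -1.03 ± 0.84, adjusted p = 0.41). With limma fitted on those groups alone, the same difference of -1.03 was called (adjusted p = 0.019). In intestine Trm it ran from -9.19 through -7.60 to -4.93, with 1 array of 6 above background (array 2), and it was lower than in whole intestine (fitted log2 difference -7.96 ± 0.73, adjusted p = 8.7e-11). The size of that difference rests mostly on values below background, since the whole-intestine mean lay 6.95 above the mean detection level of the Trm arrays. Liver Trm had no array above background and were at least 2.18-fold below whole liver (-3.16 ± 0.75, adjusted p = 0.0011). Lung Trm had 1 array of 6 above background, at -4.97, and were lower than whole lung by -2.20 ± 0.73 on the log2 scale (adjusted p = 0.014), with that array above every whole-lung value; without whole lung 1 the adjusted p was 0.061.

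Vil1 encodes villin, the actin-bundling protein of the microvillus core. Its level was 0.03, -0.01 and 1.37 in whole intestine, and in intestine Trm it ran from -8.43 through -5.67 to -4.39, with 4 of 6 arrays well above background. Trm arrays 3 and 6 were at -8.43 and -7.58, below background like every array of the other 6 groups. Vil1 was lower in intestine Trm than in whole intestine by -6.55 ± 0.60 (adjusted p = 8.7e-11) and higher than in Tem, where it was below background on all 6 arrays, by at least 1.66-fold (2.89 ± 0.49, adjusted p = 9.3e-05).

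**Figure D1:**
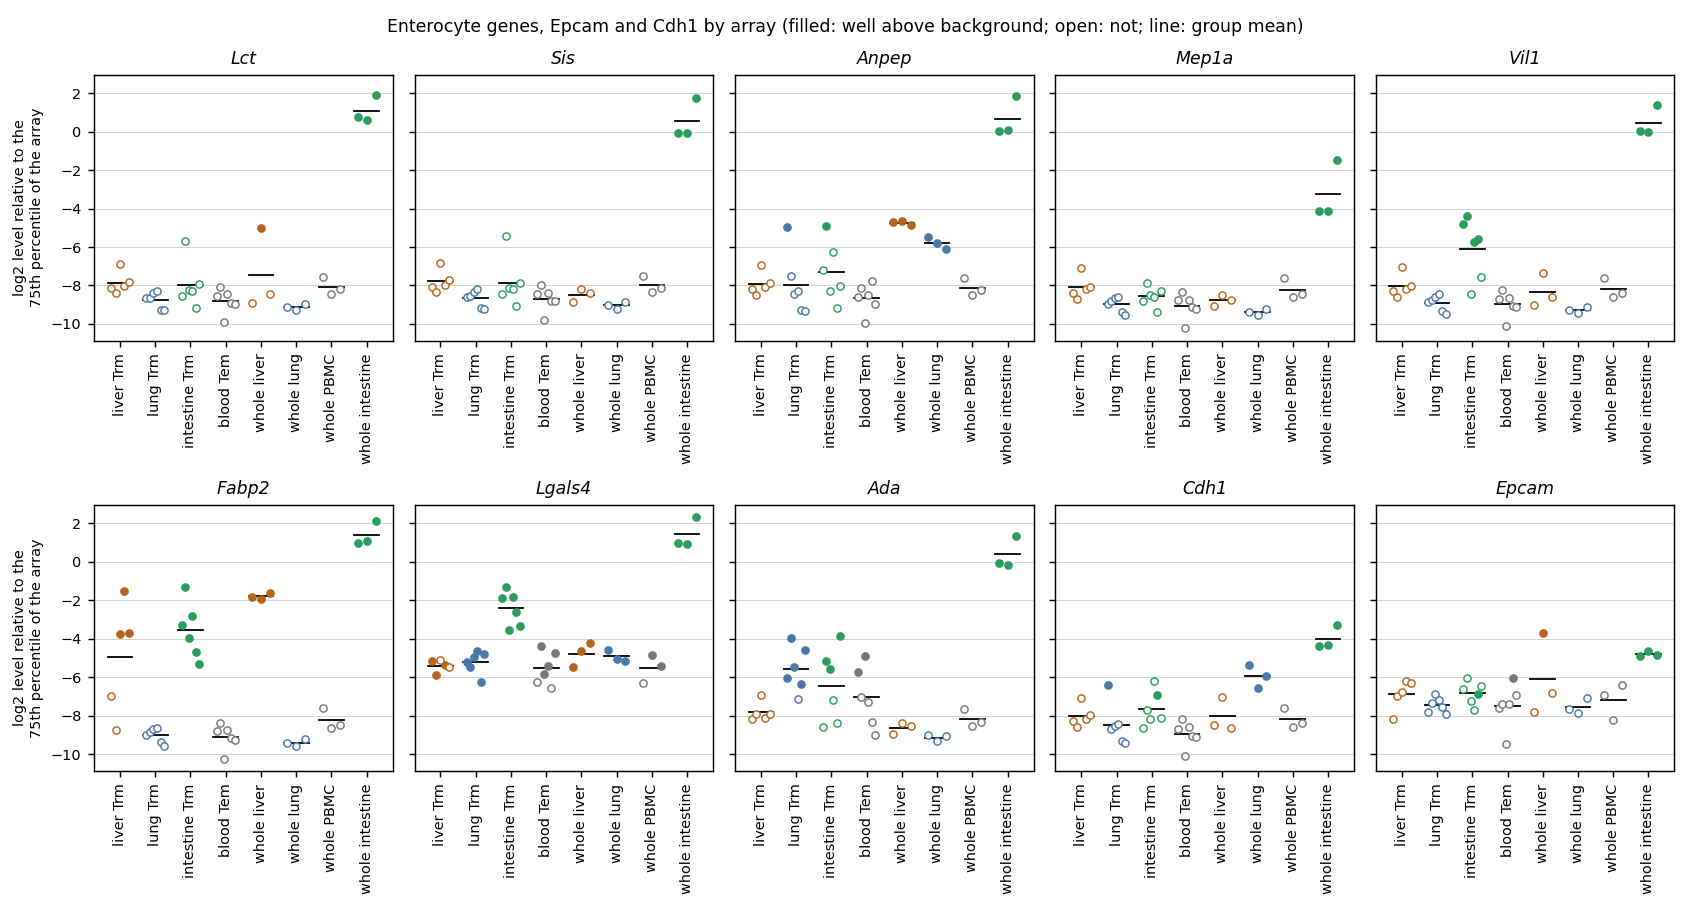
Log2 level of each gene, relative to the 75th percentile of the array, on every array of the 8 groups. Each point is 1 array, filled where the probe was well above background and open where it was not, and the line is the group mean. Whole intestine is the highest group for 9 of the 10 genes on every array, and the 10th, Epcam, is exceeded only by whole liver 2 at -3.68.

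Fabp2, the intestinal fatty acid binding protein, and Lgals4, galectin-4 of the brush border, were the genes well above background on every intestine Trm array. Fabp2 stood at 0.98, 1.08 and 2.11 in whole intestine and ran from -5.29 through -3.61 to -1.31 in intestine Trm. All Trm values lie below all whole-intestine values and above all Tem values, which ran from -10.24 through -8.97 to -8.36 with none above background. Fabp2 was 30.6-fold lower in intestine Trm than in whole intestine (-4.94 ± 0.87, adjusted p = 2.5e-05) and at least 9.60-fold higher than in Tem (5.54 ± 0.71, adjusted p = 8.7e-07), higher on each of the 6 slides that held both.

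Fabp2 was the one gene of the 10 that rose in liver Trm. Liver Trm arrays 1, 2, 3, 5 and 6 stood at -6.99, -8.71, -3.76, -1.53 and -3.69, the last 3 of them well above background, and whole liver at -1.81, -1.92 and -1.60. Array 5 thus lay at the whole-liver level and arrays 1 and 2 lay below background, while lung Trm, whole lung and whole PBMC had no array above background. The difference from Tem was at least 3.68-fold (4.16 ± 0.74, adjusted p = 1.8e-04), and that from whole liver was -3.16 ± 0.90 (adjusted p = 0.0059), with overlapping values; fitted on those groups alone its adjusted p was 0.10. The summed level of the 10 hepatocyte genes listed on arrays 1, 2, 3, 5 and 6 was 1.08, 0.95, 3.91, 3.57 and 2.55, with 7 to 9 of 10 above background, and 3.93 to 4.12 in whole liver. Arrays 1 and 2 were the lowest for these genes and for Fabp2, while the highest was array 3 for these genes and array 5 for Fabp2. Of the 10 hepatocyte genes, 9 rose against Tem, where 12.0% of all genes did, with a median difference of 6.62 against -0.31 over all genes. Their part in the Fabp2 values was not tested.

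By its brightest probe Lgals4 was detected in every group, well above background on 4 of 6 Tem arrays, 6 of 6 lung Trm arrays and 3 of 5 liver Trm arrays. In intestine Trm it ran from -3.56 through -2.23 to -1.32, against -6.55 through -5.61 to -4.38 in Tem and 0.98, 0.96 and 2.34 in whole intestine. The 3 groups do not overlap. It was 8.62-fold higher in intestine Trm than in Tem (3.11 ± 0.41, adjusted p = 1.5e-06) and 14.3-fold lower than in whole intestine (-3.84 ± 0.50, adjusted p = 1.5e-07). The 2 other probes gave group means of -2.30 and -2.44 in intestine Trm and of -6.38 and -5.79 in Tem, so all 3 probes placed intestine Trm higher. In liver Trm those 2 probes were above background on 0 and 1 of 5 arrays. Liver Trm (-5.18, -5.88, -5.07, -5.38 and -5.49) and lung Trm (from -6.23 through -5.08 to -4.63) overlapped with Tem and were not called against it.

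Ada, adenosine deaminase, removes adenosine and is made both by villus enterocytes and by lymphocytes. Its level was -0.04, -0.16 and 1.37 in whole intestine, and below background on all 9 arrays of whole liver, lung and PBMC. It was detected in T cells of several sources: 5 of 6 lung Trm arrays (from -7.12 through -5.75 to -3.95), 3 of 6 intestine Trm arrays (from -8.60 through -6.37 to -3.88) and 2 of 6 Tem arrays (from -9.0 through -7.17 to -4.87), and no liver Trm array.
The ranges of lung Trm, intestine Trm and Tem overlap, and no difference between intestine, liver or lung Trm and Tem, or between intestine and the other Trm, was called. With array weights, which count noisier arrays less, lung Trm were called above Tem (2.14, adjusted p = 0.0034, against 1.45 ± 0.66 and 0.30 without them) and above intestine Trm. Lung Trm had at least 2.92 times the Ada signal of whole lung (3.54 ± 0.80, adjusted p = 4.6e-04), the opposite direction from Anpep and Cdh1 in the same comparison. Intestine Trm were below whole intestine by -6.84 ± 0.80 (adjusted p = 1.9e-08).

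Cdh1 was highest in whole intestine, at -4.38, -4.31 and -3.27, then in whole lung, at -5.36, -6.58 and -5.93. It was below background on all arrays of whole liver, whole PBMC, Tem and liver Trm. Whole intestine was above whole lung by 1.97 ± 0.65 (adjusted p = 0.021), a call lost without whole lung 2 (0.11), whole lung 3 (0.053) or whole intestine 3 (0.13). Whole lung was above whole liver by at least 1.45-fold (2.08 ± 0.65, adjusted p = 0.016), lost with normexp background correction (0.13) and without whole lung 1 (0.090), whole liver 1 (0.054) or whole liver 3 (0.074).

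In intestine Trm, Cdh1 ran from -8.66 through -7.92 to -6.19, with 1 array of 6 well above background (array 5, at -6.91), and in lung Trm from -9.41 through -8.61 to -6.41, with 1 of 6 (array 1). Cdh1 was lower in Trm than in the organ by -3.64 ± 0.56 in intestine (adjusted p = 2.9e-06) and by -2.51 ± 0.56 in lung (adjusted p = 3.7e-04). Both sizes rest mostly on Trm values below background; in intestine the whole-organ mean lay 2.32 above the mean detection level of the Trm arrays. Lung Trm 1 lay within the whole-lung values and the others did not. Between Trm and Tem the Cdh1 difference in intestine was 1.32 ± 0.46 (adjusted p = 0.054), positive on each of the 6 shared slides and not called. Probes that were never above background in any sample had a median difference of 0.51 in the same comparison, and the adjusted p of Cdh1 ranged on both sides of 0.05 under other settings, from 0.0016 with normexp to 0.20 with quantile normalization.

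Epcam was detected in whole intestine and on single arrays elsewhere. Whole intestine stood at -4.88, -4.63 and -4.86, and intestine Trm ran from -7.70 through -6.74 to -6.02 with 1 array of 6 above background (array 5). The groups do not overlap and the difference was -2.02 ± 0.63 (adjusted p = 0.013), lost with normexp (0.060) and without whole intestine 2 (0.050). The whole-intestine mean of Epcam lay 1.51 above the mean detection level of the Trm arrays, so the fitted size of its difference rests in part on values below background. Whole liver stood at -7.81, -3.68 and -6.83, and array 2 alone was above background; whole intestine was not called against whole liver (1.31 ± 0.73, adjusted p = 0.17), and was called without whole liver 2 (2.53, adjusted p = 0.0048).

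The Trm-to-organ difference of Cdh1 and Epcam was also compared between organs in the same model. For Cdh1 it was more negative in intestine than in liver by -3.66 ± 0.80 (adjusted p = 0.0011, where 6.84% of genes were called lower), and not called between intestine and lung (-1.13 ± 0.79, adjusted p = 0.34, where 9.81% of genes were called lower). In liver Cdh1 was below background on all Trm and whole-organ arrays, so no difference could show there and the contrast with liver restates the intestine difference. For Epcam neither was called (-1.26 ± 0.90, adjusted p = 0.40, and -2.10 ± 0.89, adjusted p = 0.088). Both Epcam differences passed the threshold without the 4 arrays that stood apart (adjusted p = 0.012 and 0.011). None of those 4 arrays was of intestine or lung, so the difference from lung stayed at -2.10 and only its p-value moved. The difference from liver became -2.45.

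Set side by side, all 10 genes were called lower in intestine Trm than in whole intestine, where 20.1% of all genes tested were. Lct, Sis, Mep1a and Epcam passed the filter only through whole intestine, the group where they were high. Their calls against it were favoured by that entry, so the count is not independent of the filter. Over the 10 the fitted difference ran from -9.06 for Lct to -2.02 for Epcam. These sizes cannot be ranked between genes: most Trm values were below background, and the whole-intestine mean lay above the mean detection level of the Trm arrays by 7.40 for Lct, 3.06 for Mep1a and 1.51 for Epcam. Against Tem 3 of the 10 (Fabp2, Vil1 and Lgals4) were called higher in intestine Trm, where 5.81% of all genes were. In liver Trm against Tem 1 of the 10 was called higher (12.0% of genes), and in lung Trm against Tem 0 of 10 by limma (2.83% of genes in either direction), with Ada alone at an unadjusted p under 0.05. These 3 comparisons share the Tem arrays. Among Trm, intestine was above lung in Fabp2 (at least 9.08-fold), Vil1 (at least 1.57-fold) and Lgals4 (6.95-fold), 3 of 10 where 5.51% of genes were called higher, and above liver in Vil1 and Lgals4 (7.91-fold), 2 of 10 against 5.17%. The Vil1 difference from liver Trm (1.94 ± 0.51, adjusted p = 0.014) was lost with normexp (0.15), in the 23 sorted arrays fitted alone (0.068) and in those groups fitted alone (0.12). No bound could be set for it. Vil1 was above background on no liver Trm array, and its intestine Trm mean (-6.09) did not exceed the mean detection level of the liver Trm arrays. Fabp2 was not called between intestine and liver Trm (1.38 ± 0.74, adjusted p = 0.31); the difference was 0.44 without liver Trm 2, 2.24 without liver Trm 5 (adjusted p = 0.050) and 0.094 with array weights. The count was 2 of 10 lower in liver Trm than in whole liver (23.8% of genes lower), and in lung 2 lower (25.8%) and 1 higher (15.7%) than in whole lung. Of the settings run on all samples, normexp gave the lowest log2 differences from Tem in intestine Trm, 3.58 for Fabp2, 1.32 for Vil1 and 2.59 for Lgals4, all called.

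**Figure D2:**
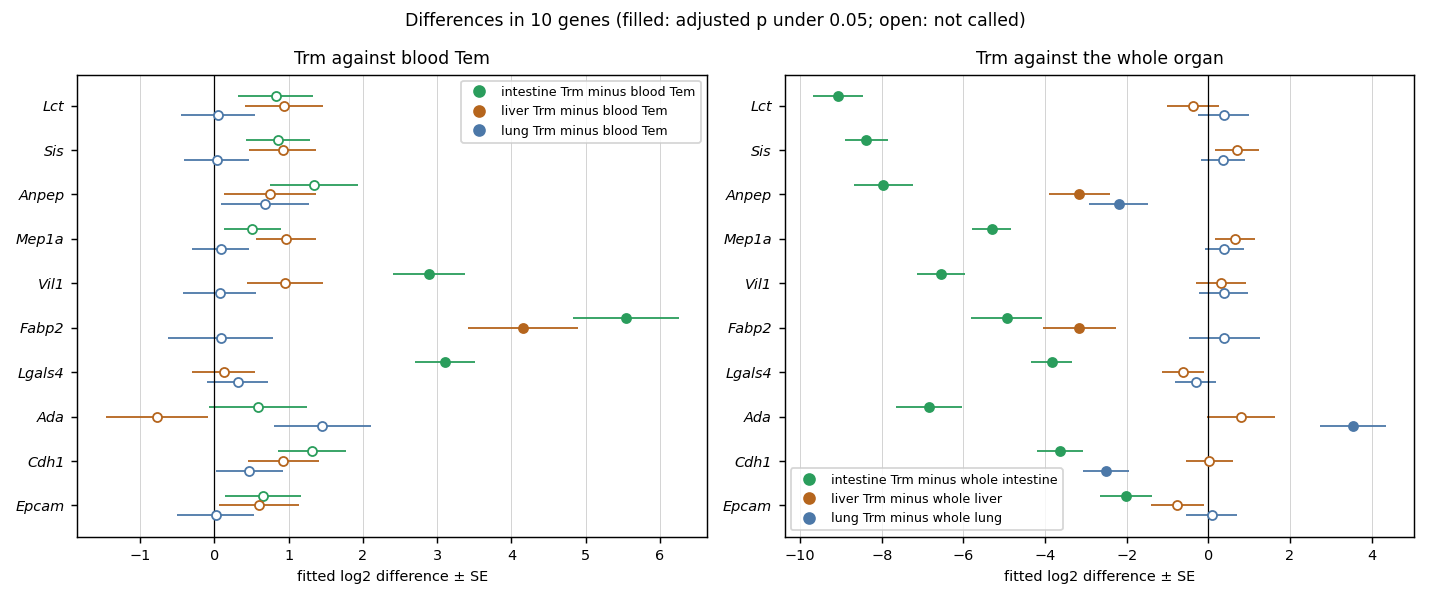
Fitted log2 difference with its standard error for each of the 10 genes, in Trm against blood Tem (left) and in Trm against the whole organ (right). Filled points had an adjusted p under 0.05. Fabp2, Vil1 and Lgals4 are the filled points of intestine Trm on the left, and all 10 genes of the intestine lie left of 0 on the right.

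Among whole organs, whole intestine was above whole liver in 9 of the 10 genes (14.0% of genes called higher), Epcam being the exception, and above whole lung in all 10 (12.8%). These counts too include Lct, Sis, Mep1a and Epcam, which passed the filter only through whole intestine. Whole lung differed from whole liver in 2 of 10 (23.0% of genes in either direction): Cdh1 was higher and Fabp2 was at least 41.0-fold lower (-7.62 ± 1.00, adjusted p = 2.4e-07). Fabp2 in whole intestine was above whole liver by 3.16 ± 1.00 (adjusted p = 0.017), and this call was lost without whole liver 2 (0.051) or whole intestine 3 (0.086).

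The 42 other enterocyte genes listed, chosen like the 10 with earlier results known, were set beside them. In intestine Trm against Tem 11 of 39 tested rose, where 5.81% of all genes did, and 2 fell. Their median difference was 0.69, against -0.04 over all genes and 0.51 over probes never above background. Of the 11, 7 were well above background on 3 or more intestine Trm arrays. Among them were Reg3g (7.01 ± 0.62, adjusted p = 3.3e-10) and Reg3b (6.36 ± 0.50, adjusted p = 2.0e-11), secreted antibacterial lectins that Paneth cells also make, and Eps8l3 was higher by 3.59. Against whole intestine 38 of the 39 fell, where 20.1% of all genes did, with a median of -5.81. Rbp2 (at least 112-fold), Clca4a (at least 66.8-fold) and Apob (at least 60.0-fold), of which Rbp2 serves retinol uptake and Apob lipoprotein assembly, were among the lowest. Reg3g was the exception (-1.72 ± 0.76, adjusted p = 0.080). Of the 42 genes, 39 or 40 were above background on whole intestine arrays and 6 to 14 on intestine Trm arrays. Genes that passed the filter only through whole intestine were favoured in these calls, so this count too is not independent of the filter.

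Of 31 epithelial junction and keratin genes, 28 were tested and 8 rose in intestine Trm against Tem (5.81% of all genes), 5 of them well above background on 3 or more intestine Trm arrays. Their median was 0.99, beside the same 0.51 for probes never above background. Krt19 (4.38 ± 0.63, at least 6.37-fold, adjusted p = 8.0e-06) and Cldn3 (3.82 ± 0.79, adjusted p = 0.0012) were the largest, with Krt18 (3.78), which was above background on all 6 Tem arrays too, and Ctnnd1 (3.33), which encodes p120-catenin, a partner of E-cadherin in the cell. Krt19 also rose in lung Trm against Tem (4.22 ± 0.63, adjusted p = 4.0e-05). Against whole intestine 20 of the 28 fell, where 20.1% of all genes did, median -3.19. They were led by Cldn15 (-5.59), Ctnnd1 (-5.07), Cgn (-4.95) and Dsp (-4.77). Of 4 tested genes for factors that repress Cdh1, 0 were called between intestine Trm and Tem by limma, with Snai1 alone at an unadjusted p under 0.05 (0.95 ± 0.42, adjusted p = 0.14), and Zeb1 rose against whole intestine (2.60 ± 0.69, adjusted p = 0.0034).

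Markers of other epithelial cell types were compared in the same way, and differed from each other. All 6 Paneth genes with a probe rose against Tem, median 6.78, and 5 of 7 goblet genes rose, median 3.12, where 5.81% of all genes did. Of 7 enteroendocrine genes 1 rose, Chgb, above background on 2 of 6 Trm arrays, and their median was 0.57. Against whole intestine 0 of 6 Paneth genes were called by limma (median 0.01), with Defa21 alone at an unadjusted p under 0.05 (2.02 ± 0.88, adjusted p = 0.076). All 7 goblet and all 7 enteroendocrine genes fell, medians -5.32 and -5.64, where 20.1% of all genes did. On whole intestine arrays 7 enteroendocrine and 7 or 8 goblet genes were above background, and on intestine Trm arrays 0 or 1 and 1 to 6. Genes that passed the filter only through whole intestine were favoured in these calls. All 8 T cell genes tested rose against whole intestine, median 4.97, where 36.7% of the 3384 genes called were higher. The summed Paneth level on intestine Trm arrays 1 to 6 was 3.34, 3.16, 1.11, 2.67, 2.61 and 0.54, and 1.57, 1.55 and 3.07 in whole intestine; the summed goblet level was 0.17, -0.23, -2.58, -1.01, -1.45 and -3.65. Arrays 3 and 6, the lowest in both, were those where Vil1 was below background, and Lgals4 was lowest there too (-3.56 and -3.31). Fabp2 did not follow this order: its lowest arrays were 6 (-5.29) and 5 (-4.67), with array 3 at -3.96. The summed level of the other enterocyte genes in intestine Trm was 0.86, 1.11, -0.52, 0.49, -0.36 and -0.95, against 4.46 to 5.72 in whole intestine. It was -2.17 to -0.90 in Tem and -0.56 to 1.40 in whole PBMC, with 4 of 42 genes above background in whole PBMC. The summed goblet level was -6.10 to -3.10 in Tem and -1.64 to 0.15 in whole PBMC, with 1 or 2 of 8 genes above background in whole PBMC. A summed level can thus rest on few genes of its list. The part of these epithelial cells in Fabp2, Vil1 and Lgals4 was not tested.

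**Figure D3:**
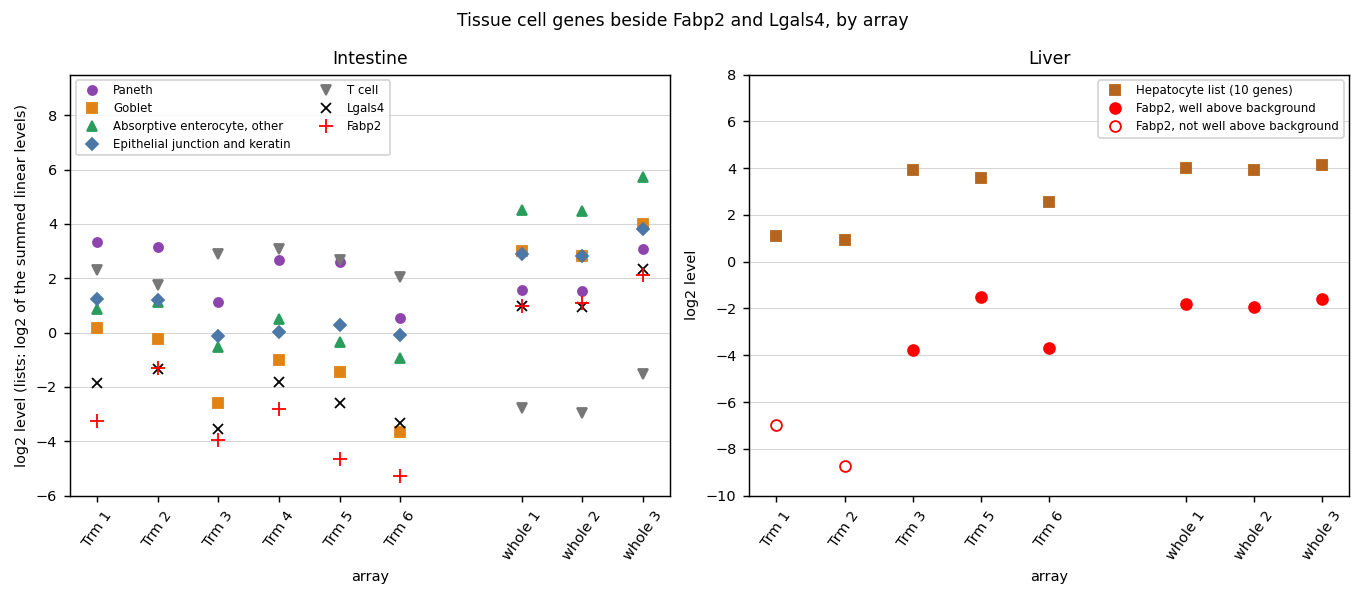
Log2 of the summed level of each gene list, with Fabp2 and Lgals4, on each intestine Trm and whole intestine array (left), and Fabp2 beside the hepatocyte list on each liver Trm and whole liver array (right); open circles were not well above background. Paneth genes lie at 0.54 to 3.34 in intestine Trm and 1.55 to 3.07 in whole intestine, and the enterocyte list lies lower in all 6 Trm arrays than in whole intestine.

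**Figure D4:**
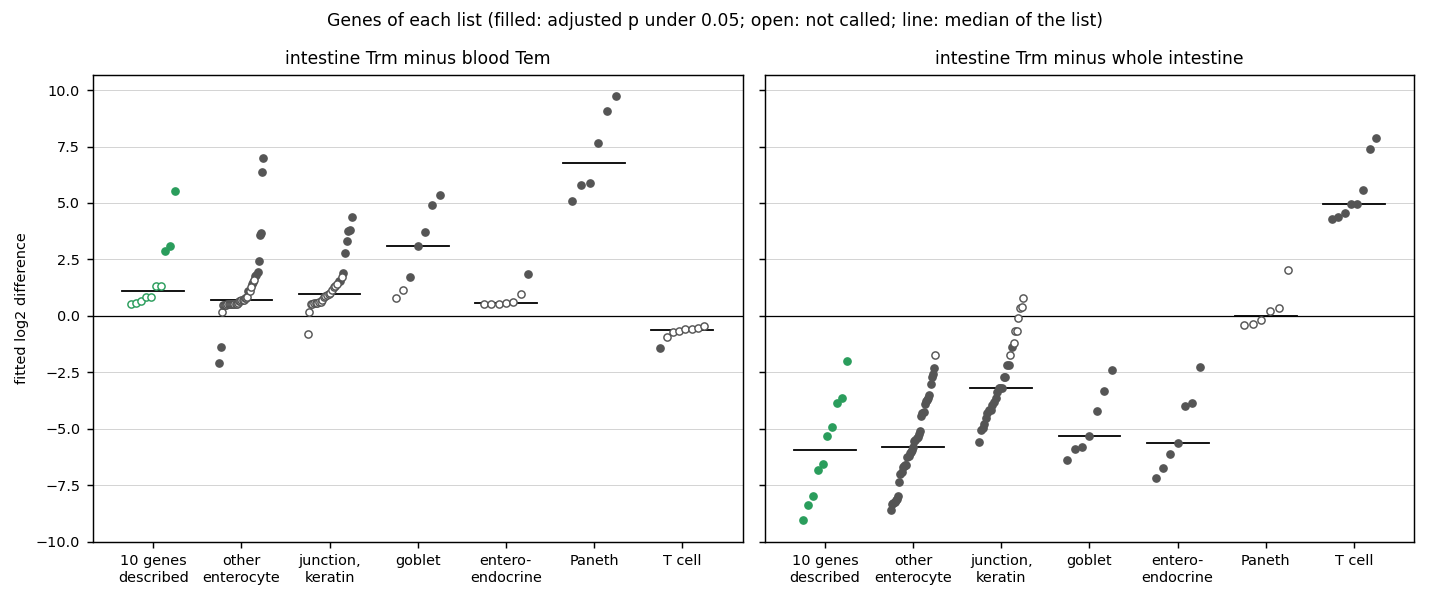
Fitted log2 difference of every tested gene of each list in intestine Trm against blood Tem (left) and against whole intestine (right). Filled points had an adjusted p under 0.05 and the line is the list's median. Paneth genes have a median of 6.78 on the left and 0.01 on the right, and the 10 genes described run from -9.06 to -2.02 on the right.

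In liver Trm against Tem 15 of the 39 other enterocyte genes rose, where 12.0% of all genes did, and 1 fell (Dpp4, -1.31 ± 0.46, adjusted p = 0.030), though 5 of the 15 were above background on at least 3 of the 5 liver Trm arrays and probes never above background had a median difference of 0.93. Among them were Fabp1 (8.06 ± 0.80, at least 72.8-fold, adjusted p = 3.0e-09), which hepatocytes make as well, Apoa1 (2.39) and Gata4 (1.90). In lung Trm against Tem Fabp1 was the single riser of the 39 (3.19 ± 0.76, adjusted p = 0.014), where 2.83% of all genes were called in either direction.

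On the T cell side, Klrg1, which binds E-cadherin, was well above background on all 6 Tem arrays (mean -2.77 ± 1.52 SD) and on 3 of 6 intestine Trm arrays (mean -6.89 ± 1.47 SD), and on none of lung or liver Trm. It was lower than in Tem by -4.12 ± 0.58 in intestine, -5.27 ± 0.60 in liver and -6.12 ± 0.58 in lung Trm (adjusted p of 4.7e-06, 7.4e-08 and 2.4e-08). Itgb7, the partner chain of CD103, was bright in all 4 sorted groups (means 0.68 to 1.16) and not called between any Trm and Tem. Of the genes used to sort, Cd8b1 was above background on all sorted arrays and lower than in Tem in intestine Trm (-1.40 ± 0.43, adjusted p = 0.028) and liver Trm (-1.57 ± 0.45, adjusted p = 0.011). Cd8a was lower in liver Trm (-1.44 ± 0.55, adjusted p = 0.043) and not called in intestine or lung Trm, and Cd3e was called in none of the 3.

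The pattern of each gene over the 35 arrays was compared with that of all others by Pearson's r, as a description: the arrays share 8 groups, and genes high in whole intestine alone resemble each other for that reason. The nearest genes were Reg3a, Mogat2 and Rbp2 for Lct (r from 0.997 to 0.999), Btnl1, Treh and Clec2h for Sis (0.991 to 0.994), Trim38, Trim31 and Alpi for Mep1a (0.997 to 0.999) and Cdx1, Adh6a and Glod5 for Vil1 (0.982 to 0.987). Anpep was nearest Enpep, Pld1 and Tmem184a (0.933 to 0.957), Lgals4 nearest B4galnt2, Lgals2 and Guca2b (0.936 to 0.937), and Cdh1 nearest Kdf1, Sccpdh and Slc1a1 (0.917 to 0.938). Fabp2 (Ugt2b34 and Ces2c, 0.895 and 0.885), Epcam (Misp, Gsdmc4 and Gip, 0.895 to 0.902) and Ada (Nhsl1, Slc28a1 and AA467197, 0.853 to 0.871) had less close neighbours. Within the 10, r was 0.98 between Lct and Sis and 0.385 between Ada and Epcam, the least alike pair.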

How the data were processed

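RNA (300 pg, integrity number above 8) was amplified in 2 rounds and labelled with Cy3 for 35 one-colour arrays, per the labels' protocols. Per the file headers, the deposited intensity of each spot came from Agilent Feature Extraction 11.0.1.1; per the submitters' processing notes it was version 10.7, with Partek also named. The authors also deposited log2 values, which matched a quantile normalization of these intensities over the 35 arrays (largest median absolute difference 0.000764).

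Each array held 43020 spots for 39429 probes, and spots of a probe were averaged. Log2 intensities were scaled by the array's 75th percentile over 1341 probes well above background on all arrays. Probes had to be well above background on 3 or more arrays of any group, and the brightest probe on average stood for a gene. Groups came from the labels. limma 3.58.1 (R 4.3.3) was fitted to 10635 genes on all 35 arrays with one mean per group; p-values are two-sided with Benjamini-Hochberg adjustment, and called means an adjusted p under 0.05. The procedure was tested on simulated data, with changes added to genes in intestine Trm. A log2 change of 2 was recovered for 63.0% of the changed genes against Tem and 44.0% against whole intestine. For a change of 4 the shares were 100.0% and 99.0%. The number of arrays limits the precision.

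The genes, lists, comparisons and tests were chosen with earlier results of these data known. Named were all 10 genes, up to 4 called genes of a list with the largest fitted difference, the 3 genes most like each of the 10, and T cell genes of the sort; Snai1, Defa21, Dpp4 and Reg3g in its comparison with whole intestine were chosen after their values were seen. Alternatives were quantile normalization, normexp (offset 50, on median spot and background signals in place of the planned mean signals), the deposited log2 values, the percentile over all probes, no filter and a stricter one, the mean of probes, array weights, fits of fewer groups, a block for the slide, and each array left out in turn. The set without 4 doubted arrays was added after seeing the data. Whole PBMC entered the fit and no comparison. Some genes that the naming rule selects are not reported here.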

Additional observations from a re-analysis of the deposited data

Results flagged for a closer look

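Of 40 sets of 4 to 10 arrays of a gene and group, 4 held an array far from the others by Dixon's criterion, which chance meets in about 1 set of 20. Lct on intestine Trm array 2 was at -5.70, with the nearest array at -7.94, and Sis on the same array was at -5.41, with the nearest at -7.87. Neither was well above background. The lowest signal that counted as above background on that array, -5.58, was the highest of the intestine Trm arrays, with the others from -7.10 to -6.02. Ada on liver Trm array 3 was at -6.95, with the nearest at -7.92, also not above background. The lowest signal that counted as above background on that array, -4.88, was likewise the highest of the liver Trm arrays, with the others from -6.43 to -5.87. Cdh1 on lung Trm array 1 was at -6.41, well above background, with the nearest at -8.45. The Trm-to-organ difference of Cdh1 was more negative in intestine than in liver by -3.66 ± 0.80 on the log2 scale (limma interaction contrast, adjusted p = 0.0011). Cdh1 was below background on all liver Trm and whole liver arrays, so this contrast mostly restates the difference within the intestine.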

How the results depend on the processing

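Over 86 results, 917 of 972 values under other settings and 766 of 801 with an array left out were counted as kept, and 0 of the reversed values were called. A difference was kept if its direction and its side of the threshold stayed. Some of the results are numbers of genes called, which have neither and could change and still count as kept. In intestine Trm minus Tem, for example, 892 genes without Tem 3, against 1297, counted as kept. Fabp2, Vil1 and Lgals4 in intestine Trm against Tem were called under every setting run, at 5.10 to 5.89, 2.55 to 3.36 and 2.89 to 3.34 with an array left out. Signal over background limits Epcam, Cdh1 and Mep1a most. The cause of the changes below was not tested.

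With array weights the genes called numbered 2168 (against 1297) in intestine Trm minus Tem, 6668 (3770) in liver Trm minus Tem, 1893 (301) in lung Trm minus Tem, 4134 (775) in intestine minus liver Trm, 2751 (822) in intestine minus lung Trm, 6793 (3384), 5872 (3433) and 7774 (4419) in Trm minus whole intestine, liver and lung, 5391 (3245) and 5592 (2656) in whole intestine minus whole liver and lung, 5673 (2451) in whole lung minus whole liver, and 3794 (1548) and 5085 (2350) for the Trm-to-organ differences of intestine minus liver and lung. Of the 10 genes, weights called 4 in liver Trm minus Tem, 1 in lung Trm minus Tem and 4 in liver Trm minus whole liver. Without a filter, 7865 genes were called in liver Trm minus Tem and 7986 in whole intestine minus whole liver, where fitting those groups alone gave 1803. Without the 4 doubted arrays, liver Trm minus Tem gave 2430, lung Trm minus Tem 687 and intestine minus lung Trm 1451. Of the 10 genes, intestine minus liver Trm called 1 with normexp, with only those groups and with the sorted arrays alone; liver Trm minus whole liver called 1 with only those groups, and whole lung minus whole liver 1 with normexp.

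Lgals4, not called in these comparisons, changed sign in liver Trm minus Tem (0.12 to -0.25 with the mean of probes, -0.016 without the doubted arrays), in liver Trm minus whole liver (-0.63 to 0.21 with quantile and with deposited values) and in whole lung minus whole liver (-0.14 to 0.38 with both, 0.36 with the percentile over all probes). The Epcam Trm-to-organ difference of intestine minus liver became -2.64 with weights and -2.45 without the doubted arrays, both called; that of intestine minus lung was called at -2.23 (all-probe percentile), -2.38 (weights) and -2.10 (only those groups, and without the doubted arrays).

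With an array left out, genes called ranged from 1704 (without liver Trm 3) to 4744 (without liver Trm 2) in liver Trm minus Tem, from 185 (without lung Trm 2) to 533 (without Tem 3) in lung Trm minus Tem, from 496 (without liver Trm 3) to 1170 (without liver Trm 2) in intestine minus liver Trm, from 455 (without lung Trm 6) to 953 in intestine minus lung Trm, and from 1786 (without whole intestine 3) to 3316 in whole intestine minus whole liver. Of the 10 genes, 1 to 2 were called in liver Trm minus Tem and 1 to 3 in whole lung minus whole liver. Lgals4 ranged from -0.082 to 0.35 in liver Trm minus Tem and from -0.49 to 0.14 in whole lung minus whole liver, and the Epcam difference of intestine minus liver from -2.48 (without whole liver 2) to -0.41.

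The share of calls that were higher moved with scaling: from 34.0% to 54.4% (normexp) in liver Trm minus Tem, 61.8% to 77.8% (quantile), 77.7% (deposited), 74.7% (all probes) and 40.8% (normexp) in lung Trm minus Tem, 71.0% to 52.4% (normexp) in intestine minus liver Trm, 71.3% to 45.6%, 45.5% and 40.3% (quantile, deposited, all probes) in intestine minus lung Trm, 26.4% to 40.1%, 40.1%, 42.8% and 36.5% (the same 3 and normexp) in liver Trm minus whole liver, 45.8% to 60.4%, 60.4% and 68.9% in whole intestine minus whole liver, 52.5% to 65.7%, 65.7% and 70.7% in whole lung minus whole liver, and 53.0% to 41.2%, 41.2% and 35.1% for the difference of intestine minus liver. The median of all genes in whole lung minus whole liver moved from -0.07 to 0.43 with all probes, and in liver Trm minus Tem from -0.31 to 0.09 with normexp.

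Arrays with the same replicate number shared a slide, among the sorted arrays and, on other slides, among the whole samples. Deviations of same-numbered arrays had a median correlation of -0.0042 over 33 sorted pairs, 7 of them over 0.1, and 2 of 23 sorted and 1 of 12 whole arrays correlated best with their own number, so the numbers were not taken to pair the samples. With the replicate block, all 86 results counted as kept by the rule above. The genes called numbered 1214 (against 1297) in intestine Trm minus Tem and 3063 (against 3770) in liver Trm minus Tem, and Fabp2, Vil1 and Lgals4 were called as before.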
